A study of Homo sapiens with 54 samples.

Results

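HT-29 cells, an epithelial line from a human colon adenocarcinoma, were compared after 16 h with and without a high dose of tumour necrosis factor (TNF). All cultures had been primed with interferon-gamma at 200 U/ml for 24 h, so the cells without TNF carried that treatment too. Members were chosen by the dose and time in the array titles, which gave 12 of the 54 arrays of the series. The TNF side, always at 100 ng/ml, held 2 arrays of TNF alone, 2 of TNF with epidermal growth factor (EGF, 100 ng/ml) and 2 of TNF with insulin (500 ng/ml). On the side without TNF, 2 arrays each came from untreated cells, cells given EGF at 100 ng/ml alone and cells given insulin at 500 ng/ml alone. EGF and insulin are survival factors, and having none, EGF or insulin is called the setting below. The same 6 treatments were also measured at 4 h and 8 h. The series describes its replicates as biological duplicates of 1 cell line, so the p-values measure the spread between cultures of that line.

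TNF binds receptors that assemble a signalling complex at the cell membrane, and that complex frees NF-kB, a transcription factor that switches on chemokines, adhesion molecules and its own inhibitors. The same receptors can start a caspase pathway that kills the cell, and interferon-gamma priming is known to make HT-29 cells sensitive to it. Cells that make interferon-beta secrete it and respond to it through their own receptors, which switch on antiviral genes through interferon-stimulated response elements.

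The values are linear MAS5 signals of 13422 probe sets that passed a filter on low signal, standing for 8105 genes, each described by 1 probe set. A change is the difference in log2(signal + 12.49) between the TNF and no-TNF sides, averaged over the 3 settings, and ± is its standard error. Every adjusted p is limma's, with Benjamini-Hochberg adjustment over all 13422 probe sets, and "rose" or "fell" means an adjusted p under 0.05. Replicates of these 6 groups correlated by 0.960 to 0.977 across probe sets. The median signal of an array was 111 to 149 on the TNF side and 125 to 155 on the no-TNF side. The log2 ratio of ACTB signal from the 3′ and 5′ ends of the transcript, higher in shortened RNA, was −0.08 to 0.63 with TNF and 0.03 to 0.40 without, and the highest was TNF with insulin in replicate 1. Of 12 colon epithelium markers, 9 had a median above the filter's signal of 138.9, with summed signals of 59832 to 92061 with TNF and 76620 to 99523 without. The intestinal markers CDX1, CDX2 and CDH17 lay below that signal in all 12 arrays. Of 9 leukocyte markers on the array, LYZ and ITGAM had a median above it. PTPRC, which marks all leukocytes, never exceeded 34.6. The leukocyte sum was 5789 to 8950 with TNF and 6395 to 9538 without, mostly LYZ at 5000 to 8129 with TNF and 5944 to 8871 without. ITGAM, an integrin chain, gave 355 to 525 with TNF and 65.8 to 108 without. The fibroblast sum was 637 to 726 with TNF and 642 to 1090 without, and 2 of its 7 markers had a median above 138.9. None of 5 endothelial markers did, with sums of 136 to 324 with TNF and 149 to 323 without. The part of other cells in the results was not tested.

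TNF at 16 h raised inflammatory, interferon-stimulated and complement genes and lowered nearly all measured genes of DNA replication. Of 8105 genes, 929 rose (11.5%) and 1672 fell (20.6%), of which 269 rose and 226 fell by 2-fold or more. The sign was the same in all 3 settings for 2501 of these 2601 genes. They were called on the mean of the same settings, which favours a shared sign. In all, 308 genes rose and 293 fell with an adjusted p under 0.05 in each setting taken alone. All 6 arrays with TNF lay above all 6 without for 7.05% of genes, and all 6 lay below for 10.5%. The median change of all genes was −0.10. Among probe sets, 1445 rose and 2500 fell, a share of 36.6% higher. After median centring 1598 rose and 1509 fell, a share of 51.4% higher.

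SLC2A6, which encodes a hexose transporter, rose most. Its signals had a lowest, median and highest of 1018, 1294 and 1478 with TNF, against 6.92, 18.9 and 29.0 without. The groups were far apart, and the change was 5.36 ± 0.26 (n = 6 arrays per side, limma adjusted p = 5.15e-18). With a constant of 1 or 50 added in place of 12.49 it was 6.07 or 4.25.

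IFNB1, the gene of interferon-beta, followed. Its signals were 512, 690 and 1244 with TNF (lowest, median and highest), against 6.19, 9.75 and 18.4 without. No array without TNF reached 138.9, and every array with TNF exceeded it. The change was 5.00 ± 0.26 (n = 6 per side, limma adjusted p = 3.59e-17), and 6.03 or 3.67 with a constant of 1 or 50. TNF alone gave 1244 and 889, TNF with EGF gave 532 and 512, and TNF with insulin gave 809 and 571.

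**Figure D1:**
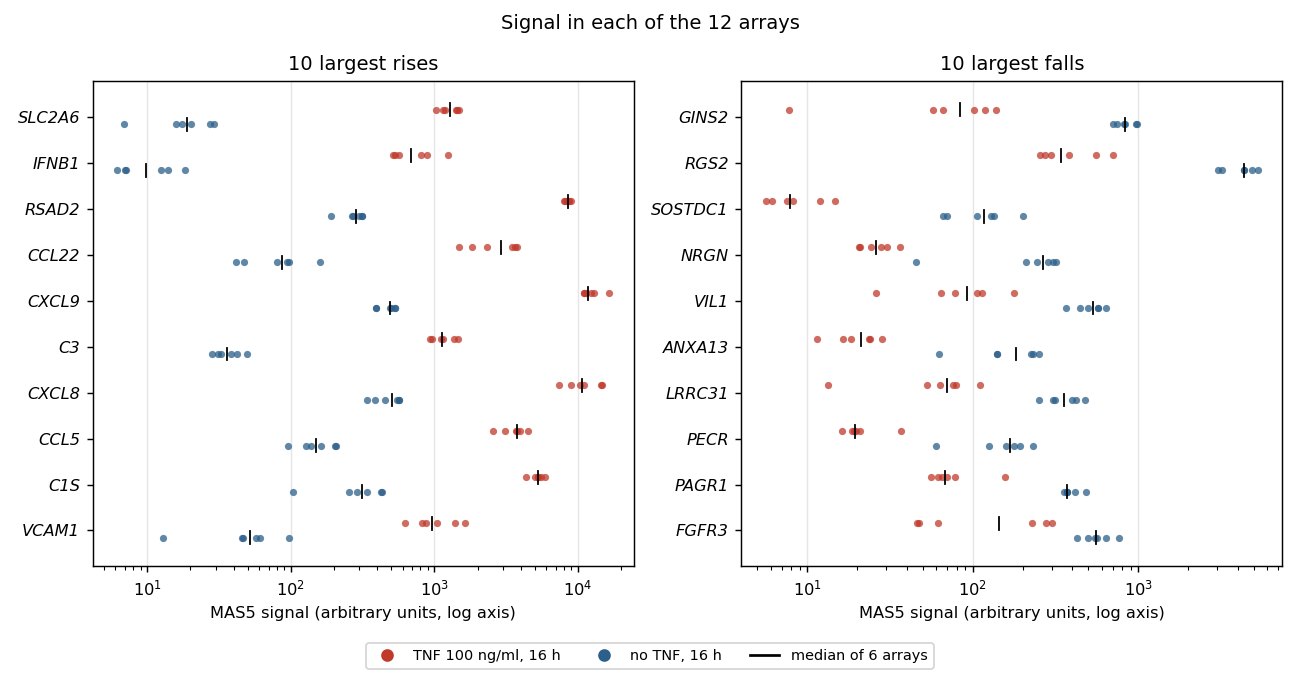
MAS5 signal on a log axis in each of the 12 arrays for the 10 largest rises (left) and 10 largest falls (right), with TNF at 100 ng/ml in red and without TNF in blue; short black lines are medians of 6 arrays. The sides do not overlap for any of these 20 genes, as for IFNB1 at 512 or more with TNF against 18.4 or less without.

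RSAD2, an antiviral enzyme also called viperin, had signals of 8029, 8505 and 8918 with TNF, against 190, 286 and 314 without. The spread on the TNF side was small beside the gap, and the change was 4.89 ± 0.19 (n = 6 per side, limma adjusted p = 6.56e-21). CXCL9, which draws T cells, gave 11071, 11827 and 16490 with TNF, against 389, 492 and 535 without. CXCL9 had the smallest standard error of the 10 largest rises, at 4.69 ± 0.08. The other 6 of these rises were the chemokines CCL22 at 4.83, CXCL8 at 4.49 and CCL5 at 4.44, the complement genes C3 at 4.56 and C1S at 4.15, and the adhesion molecule VCAM1 at 4.08. For all 10 genes every TNF array exceeded every array without TNF.

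Of the falls, GINS2 led, a subunit of the replicative DNA helicase. Its signals were 7.76, 84.0 and 138 with TNF, against 707, 828 and 981 without. All arrays with TNF lay far below the rest, and the change was −3.42 ± 0.19 (n = 6 per side, limma adjusted p = 1.51e-16). RGS2, a brake on G-protein signalling, had signals of 256, 339 and 699 with TNF, against 3050, 4346 and 5279 without. It fell by 3.38 ± 0.10 (limma adjusted p = 1.91e-23).

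The other 8 of the 10 largest falls were smaller. SOSTDC1, an antagonist of BMP and Wnt signals, fell by 2.53, VIL1, the actin bundler of microvilli, by 2.44, and FGFR3, a fibroblast growth factor receptor, by 2.11. NRGN at −2.49, ANXA13 at −2.42, LRRC31 at −2.36, the peroxisomal reductase gene PECR at −2.23 and PAGR1 at −2.19 completed the 10. FGFR3 differed by replicate with TNF, at 228, 277 and 300 in replicate 1 and 47.1, 62.0 and 45.8 in replicate 2, against 425 to 761 without. VIL1 gave 26.0, 92.0 and 178 with TNF, against 368, 533 and 640 without. SOSTDC1 gave 5.64, 7.86 and 14.7 with TNF, against 66.1, 118 and 202 without, and its change was −3.54 or −1.46 with a constant of 1 or 50. The same constants gave −2.73 and −1.48 for PECR and −2.96 and −1.61 for ANXA13.

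Promoters of genes from the main groups are shown because the groups differed in the letters they held. The search covered 250 bases before to 50 after each gene's start in RefSeq's GRCh38.p14 table, on both strands. It used GAAANNGAAA for the interferon-stimulated response element, GGANNTTCC for an NF-kB site, and TTTCCCGC or TTTGGCGC for a site of E2F, the factor that drives replication genes. The 200 bases before the start are printed 5′ to 3′ in the gene's direction, with matches in capitals. CXCL8 lies at chr4:73740369-73740568 and IFIT1 at chr10:89392423-89392622, both on the plus strand. IFNB1, GINS2 and MCM6 lie on the minus strand of chr9, chr16 and chr2.
IFNB1: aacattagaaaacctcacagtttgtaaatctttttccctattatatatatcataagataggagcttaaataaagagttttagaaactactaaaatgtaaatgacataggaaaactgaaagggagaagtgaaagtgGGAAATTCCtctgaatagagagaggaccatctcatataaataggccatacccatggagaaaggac
CXCL8: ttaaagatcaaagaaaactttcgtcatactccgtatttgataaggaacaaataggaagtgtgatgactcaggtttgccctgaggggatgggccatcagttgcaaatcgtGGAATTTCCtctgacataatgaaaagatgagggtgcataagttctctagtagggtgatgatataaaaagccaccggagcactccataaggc
IFIT1: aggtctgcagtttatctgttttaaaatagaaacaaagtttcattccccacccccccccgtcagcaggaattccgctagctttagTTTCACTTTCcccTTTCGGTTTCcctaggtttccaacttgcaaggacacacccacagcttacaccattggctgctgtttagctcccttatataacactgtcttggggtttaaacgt
GINS2: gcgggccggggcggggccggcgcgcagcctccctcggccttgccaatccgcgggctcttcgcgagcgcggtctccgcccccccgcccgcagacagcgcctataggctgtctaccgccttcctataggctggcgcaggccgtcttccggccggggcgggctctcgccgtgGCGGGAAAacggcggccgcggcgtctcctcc
MCM6: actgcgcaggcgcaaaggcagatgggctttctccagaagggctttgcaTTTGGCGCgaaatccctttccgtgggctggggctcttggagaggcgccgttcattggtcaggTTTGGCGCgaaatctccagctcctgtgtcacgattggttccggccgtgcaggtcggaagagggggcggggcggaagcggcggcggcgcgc
The NF-kB letters start 65 bases before the start of IFNB1 and 91 before that of CXCL8. IFIT1 holds the interferon-stimulated letters at 116 and 103 bases, GINS2 an E2F match at 31 bases and MCM6 E2F matches at 152 and 90 bases before the start.

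Of 138 genes with a promoter in the table that rose at least 2-fold and by more than at 4 h, 29 (21.0%) held GAAANNGAAA and 20 (14.5%) the NF-kB letters. Of the other 69 genes that rose at least 2-fold, 5 (7.25%) and 12 (17.4%) did. Of 186 genes that fell at least 2-fold, 21 (11.3%) held an E2F match and 3 (1.61%) held GAAANNGAAA. Among 6711 genes tested with a promoter in the table, 3.20% held GAAANNGAAA, 4.81% the NF-kB letters and 3.77% an E2F match, and among all 27305 promoters 3.65%, 4.59% and 2.31% did. By list, GAAANNGAAA was found in 22 of 32 type I interferon-stimulated genes (68.8%), the NF-kB letters in 7 of 10 chemokines (70.0%) and an E2F match in 16 of 33 replication genes (48.5%). A match is a description of letters only. RSAD2, for example, held no GAAANNGAAA in this window but E2F letters 122 and 88 bases before its start.

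The counts of gene groups below are of measured members of 33 lists. Beside them stand the shares of all genes that rose (11.5%) or fell (20.6%), and no test was run on a list. Over all probe sets 2500 fell in the main fit, 1509 after median centring and 2139 after quantile normalization. The rises were 1445, 1598 and 1608 in the same order. The shares of the main fit therefore do not apply to list counts under those alternatives.

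**Figure D2:**
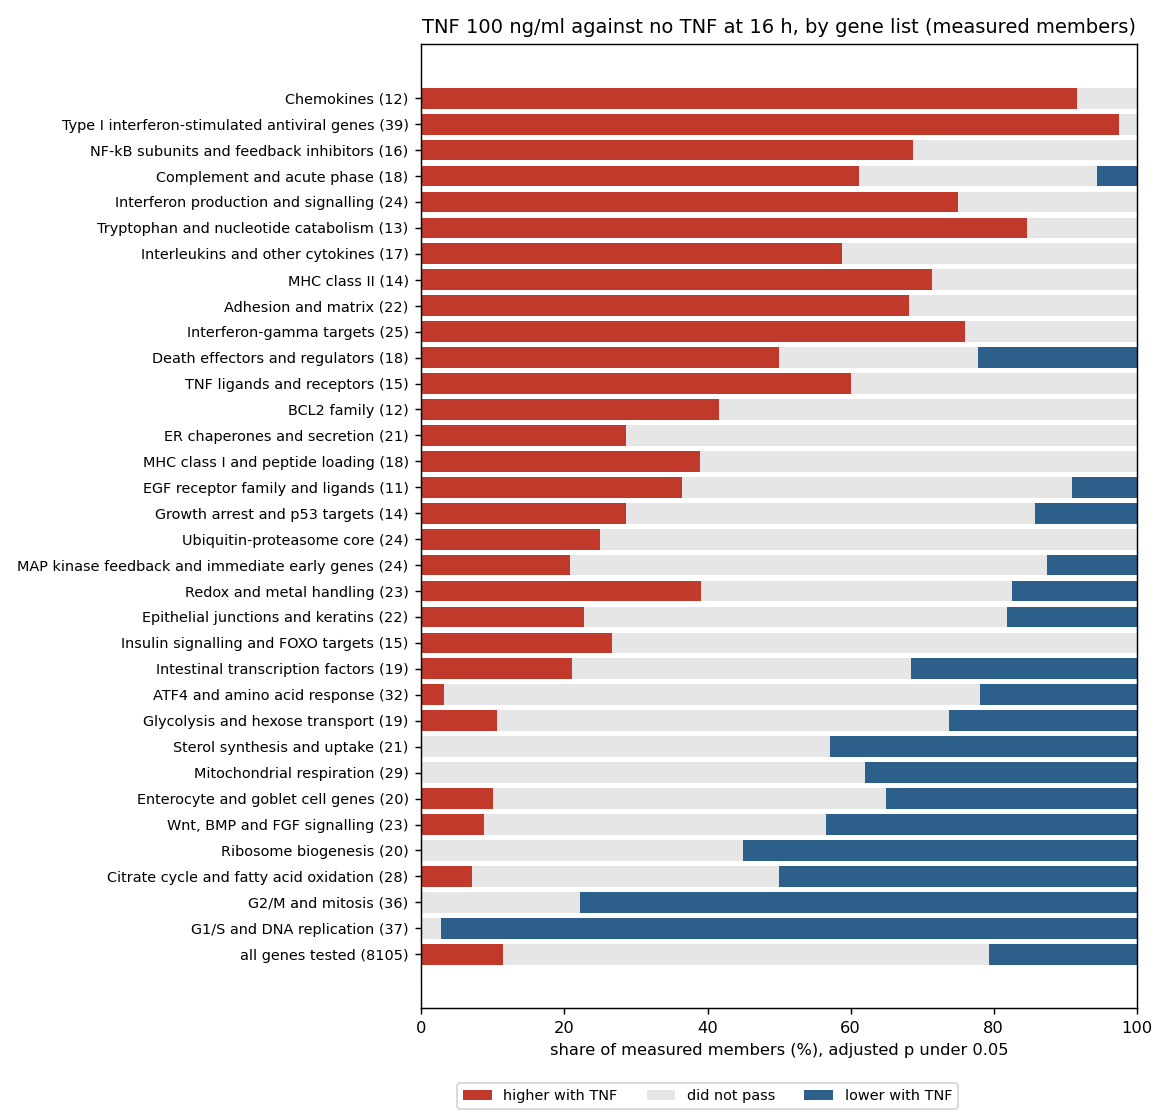
Share of measured members (%) that rose, did not pass or fell with TNF at 100 ng/ml against no TNF at 16 h, for each gene list, with the number measured in brackets and lists ordered by their median change. The interferon-stimulated list is 97.4% higher and the DNA replication list 97.3% lower, beside 11.5% and 20.6% of all genes in the bottom bar.

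NF-kB subunits and feedback inhibitors had 11 of 16 members higher and none lower, with a median change of 1.21. TNFAIP3, the deubiquitinase A20 that restrains NF-kB, gave 2468, 2914 and 3434 with TNF, against 213, 229 and 289 without. The groups did not overlap, and TNFAIP3 rose by 3.56 ± 0.13 (n = 6 per side, limma adjusted p = 4.51e-21). NFKBIA, the inhibitor that holds NF-kB in the cytoplasm, rose by 2.77, and TNIP1, which works with A20, by 1.97. The subunits NFKB2 at 2.22, RELB at 2.17, NFKB1 at 0.90 and RELA at 0.84 rose, whereas REL, at −0.06, did not pass. The list's median was 1.29 at 4 h and 1.27 at 8 h.

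TNF ligands and receptors had 9 of 15 members higher. TNF itself gave 144, 235 and 284 with TNF, against 8.86, 60.6 and 114 without, and rose by 1.99 ± 0.32. LTB, the membrane anchor of lymphotoxin, rose by 3.52, TNFSF10, which encodes the death ligand TRAIL, by 2.66, TNFRSF9 by 1.90 and the death receptor FAS by 1.39. TNFRSF1B, the second TNF receptor, rose by 1.16. TNFRSF1A, the first and main death-signalling receptor, did not pass at 0.34 (limma adjusted p = 0.106) and passed at 0.44 only without EGF replicate 1 (0.0485).

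Chemokines had 11 of 12 members higher with a median of 2.07, against 2.76 at 4 h and 3.35 at 8 h. CXCL8, which draws neutrophils, gave 7368, 10652 and 14717 with TNF, against 340, 503 and 570 without. Its change was 4.41 after 4 h, 4.79 after 8 h and 4.49 after 16 h, and the effect after 16 h passed no test of a difference from either earlier time. CCL20 rose by 1.42 at 16 h but had 5.07 at 4 h and 6.13 at 8 h, and CXCL3 rose by 1.47, beside 3.17 and 3.55. CCL5 ran the other way, with changes of 0.57, 1.51 and 4.44 at the 3 times in order. The membrane-bound CX3CL1 rose by 2.94, CXCL1 by 2.34, CXCL11 by 1.80 and CXCL10 by 1.70, while CXCL6, at 0.44, did not pass.

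Other cytokines had 10 of 17 members higher. IL32, an inflammatory cytokine, rose by 3.26, with signals of 9370 to 14512 with TNF against 899 to 1842 without. IL1RN, the natural antagonist of the interleukin-1 receptor, rose by 2.38, IL23A, a subunit of interleukin-23, by 1.77 and the macrophage growth factor CSF1 by 1.56. IL6 at 0.35, IL1B at 0.40 and IL7 at −0.46 did not pass.

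Type I interferon-stimulated antiviral genes had 38 of 39 members higher, with a median of 1.43, and 36 had all TNF arrays above all others. IFIT1, which binds foreign RNA, gave 8357, 10019 and 10962 with TNF, against 622, 1077 and 1259 without. It rose by 3.25 ± 0.15 (n = 6 per side, limma adjusted p = 2.22e-18), beside −0.45 at 4 h and 0.33 at 8 h. IFI16, a sensor of DNA, rose by 3.60, IFIT2 by 3.58, the GTPase gene MX2 by 2.83 and the ISG15 ligase HERC5 by 2.60. OAS1, OAS2 and OAS3, which activate an RNase against viral RNA, rose by 2.21, 2.30 and 1.57. ISG15 rose by 0.69, and LGALS3BP, at 0.11, was the member that did not pass.

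Interferon production and signalling had 18 of 24 members higher and none lower. The RNA sensors RIGI, IFIH1 and DHX58 rose by 2.82, 2.09 and 2.22. RIGI gave 4536, 4736 and 5603 with TNF, against 528, 726 and 872 without. USP18, a brake on type I receptors, rose by 2.26, and SOCS1, a brake on Janus kinases, by 1.84. The receptor chains IFNGR2 at 1.83, IFNAR2 at 1.60 and IFNGR1 at 0.94 rose, as did JAK2 at 1.47 and the transcription factor IRF7 at 1.31. IRF1, the first transcription factor induced by interferon-gamma, did not pass at 0.16 (limma adjusted p = 0.253), with signals of 9021 to 12062 with TNF and 8491 to 10704 without. IRF9, at −0.04, did not pass either.

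Interferon-gamma targets had 19 of 25 members higher, on top of the priming that both sides shared. CFB, a complement protease, rose by 2.90, IDO1, which degrades tryptophan, by 2.87, ICAM1 by 1.98 and GBP2 by 1.29. CIITA, the master regulator of class II genes, did not pass at 0.11. The tryptophan and nucleotide list had 11 of 13 members higher with a median of 0.90, among them CD38 at 1.75, the thymidine phosphorylase TYMP at 1.70 and KYNU, an enzyme further down tryptophan breakdown, at 1.44.

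MHC class II genes had 10 of 14 members higher with a median of 0.66. HLA-DOB, which tunes peptide loading, gave 726, 1135 and 1517 with TNF, against 15.3, 57.1 and 111 without, and rose by 4.07 ± 0.20. CTSS, the protease that prepares class II molecules, rose by 1.54, HLA-DQB1 by 1.01 and HLA-DRA by 0.81. MHC class I and peptide loading had 7 of 18 members higher, with TAPBP at 0.93, TAP1 at 0.57, HLA-F at 0.50 and HLA-E at 0.44. B2M, HLA-B and HLA-C, at 0.01, 0.23 and 0.09, did not pass. HLA probe sets can bind transcripts of closely related genes, so single members are uncertain.

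Complement and acute phase genes counted 11 risen members of 18 and 1 that fell, with a median of 1.16. C3, the central protein of complement, gave 928, 1137 and 1449 with TNF, against 28.2, 35.7 and 49.9 without. C1S and C1R, the proteases that start the classical pathway, rose by 4.15 and 2.40, and SERPING1, which inhibits both, by 1.72. PI3, an elastase inhibitor, rose by 3.12, beside 4.16 at 4 h, and WFDC2 by 2.10. SLPI, another elastase inhibitor, fell by 0.41.

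Adhesion and matrix genes had 15 of 22 members higher and none lower. VCAM1, which leukocytes bind through integrins, gave 621, 956 and 1639 with TNF, against 12.9, 51.9 and 97.6 without. ICAM1 gave 7874, 9320 and 11826 with TNF, against 1852, 2414 and 3194 without, and its change of 1.98 stood beside 1.97 at 4 h. The collagenase gene MMP13 rose by 2.98, with signals of 8.06 to 13.8 without TNF and a change of 3.90 or 1.87 with a constant of 1 or 50. The plasminogen activator PLAU rose by 1.93, MMP7 by 1.50 and the "do not eat me" signal CD47 by 1.46.

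Death effectors and regulators had 9 of 18 members higher and 4 lower. The share lower, 22.2%, was near the 20.6% of all genes. ZBP1, a nucleic acid sensor that can start necroptosis, gave 130, 186 and 246 with TNF, against 4.73, 16.7 and 30.8 without. It rose by 2.78 ± 0.27, and by 3.54 or 1.81 with a constant of 1 or 50. The kinase RIPK2 rose by 1.49, CFLAR, the inhibitor of caspase-8, by 1.28, CASP10 by 1.00 and CASP8 by 0.43. CASP6, an executioner caspase, fell by 1.01, BIRC5 by 0.74, CASP2 by 0.63 and CASP9 by 0.30. After median centring, or without untreated, EGF, insulin or TNF with insulin replicate 1, 2 of the 18 were lower. Of 12 BCL2 family members 5 rose and 7 did not pass. BID, which links death receptors to mitochondria, rose by 0.95, the death-promoting PMAIP1 by 0.72 and the protective MCL1 by 0.42.

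Genes of G1/S and DNA replication had 36 of 37 members lower and none higher, with a median of −1.33, and in 34 all TNF arrays lay below all others. TYMS, which makes thymidylate, gave 650, 964 and 1717 with TNF, against 3630, 4647 and 5094 without, and fell by 2.08 ± 0.16 (n = 6 per side, limma adjusted p = 5.34e-13). RRM2, the regulated subunit of ribonucleotide reductase, gave 853, 962 and 1177 with TNF, against 3265, 4187 and 5607 without. It fell by 2.07 ± 0.11. CDC45, a component of the replicative helicase, fell by 2.02, and the helicase subunits MCM5, MCM6, MCM4, MCM2, MCM7 and MCM3 fell by 2.03, 1.97, 1.90, 1.86, 1.35 and 0.94. CCNE1, cyclin E, at −0.55, was the member that did not pass. In whole cultures fewer cells in S phase and less RNA per cell cannot be told apart.

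Genes of G2/M and mitosis had 28 of 36 members lower with a median of −0.56. The transcription factor FOXM1 fell by 1.12, MYBL2 by 1.09, the spindle motor KIF11 by 1.08, the checkpoint protein MAD2L1 by 1.08 and the proliferation marker MKI67 by 0.76. CDC20 at 0.03, UBE2C at −0.19 and PTTG1 at −0.21 did not pass. After median centring 22 of the 36 were lower.

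The growth arrest list had 4 of 14 members higher, 2 lower and 8 that did not pass. RGCC, a cell cycle regulator, gave 638, 1088 and 1403 with TNF, against 35.6, 72.4 and 131 without, and rose by 3.59 ± 0.17. CDKN1A, which encodes the kinase inhibitor p21, rose by 1.51, whereas the stress gene GADD45A fell by 1.12. CCND1, cyclin D1, did not pass at −0.24 (limma adjusted p = 0.247). MYC, at −0.24, did not pass either (limma adjusted p = 0.194), although its signals of 3016 to 3703 with TNF lay below those of 3791 to 4640 without, and it passed with the 12 arrays alone (0.0486) and with the 18 arrays at 16 h alone (0.0384).

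Ribosome biogenesis had 11 of 20 members lower and none higher, with BYSL at −0.73, RRS1 at −0.71 and POLR1C at −0.57, and 5 were lower after median centring. Citrate cycle and fatty acid oxidation genes had 14 of 28 members lower and 2 higher. HADH and ACADM, dehydrogenases of fatty acid oxidation, fell by 1.20 and 1.16 and the thiolase ACAA2 by 0.78. HADH gave 246 to 381 with TNF, against 611 to 859 without. After median centring 8 of the 28 were lower. Mitochondrial respiration had 11 of 29 members lower with small changes, such as NDUFS3 at −0.47 and SDHA at −0.46, and 1 was lower after median centring, when SDHA did not pass. Without single arrays 5 to 11 were lower, with 5 without insulin replicate 1, EGF replicate 2 or TNF with EGF replicate 2.

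Glycolysis and hexose transport had 5 of 19 members lower (26.3%, beside 20.6% of all genes). Among them were ALDOC at −0.57, GPI at −0.48 and PFKM at −0.42. The 2 higher members were SLC2A6 at 5.36 and the hexokinase HK1 at 0.37. HK1 did not pass without TNF replicate 1, TNF with EGF replicate 1, EGF replicate 2 or insulin replicate 2, with limma adjusted p of 0.066 to 0.127. The lower members numbered 3 after median centring, 7 after quantile normalization and 3 to 6 without single arrays. Sterol synthesis had 9 of 21 members lower, with TM7SF2 at −0.74, EBP at −0.71 and the desaturase SCD at −0.53, and 4 after median centring. Among 32 ATF4 targets and amino acid genes 7 fell, near the share of all genes, with 3 after median centring, 11 after quantile normalization and 3 to 10 without single arrays (3 without EGF replicate 2). PSPH and PHGDH, which make serine, fell by 1.18 and 0.78.

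Secretory pathway genes had 6 of 21 members higher, with DNAJB9 at 0.89, HYOU1 at 0.66 and SEC61A1 at 0.66. In the redox and metal list 9 of 23 members rose and 4 fell. The share that fell, 17.4%, was near the 20.6% of all genes. The metallothioneins MT1X at 1.22, MT2A at 1.13, MT1F at 1.09, MT1H at 0.93, MT1G at 0.80 and MT1E at 0.46 rose, and their probe sets can share targets. CAT, the peroxide-degrading catalase, gave 651 to 1022 with TNF, against 1850 to 3031 without, and fell by 1.47. The zinc importer SLC39A8 fell by 1.30. Proteasome genes had 6 of 24 members higher, with PSMB7 at 0.54 and PSMB2 at 0.45, and 3 after quantile normalization or without TNF with EGF replicate 1.

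Genes of enterocytes and goblet cells had 7 of 20 members lower and 2 higher. The lower members numbered 5 after median centring and 5 after quantile normalization. Beside VIL1, the surface antigen GPA33 fell by 1.27, AGR2, which folds mucins, by 0.97 and the carbonic anhydrase CA12 by 0.74. MUC1, a membrane mucin, rose by 2.16, with signals of 1600 to 2968 with TNF against 381 to 538 without. Of 19 intestinal transcription factors 6 fell, among them ISL1 at −1.81, CEBPA at −1.45 and PPARG at −1.11, and 4 rose, with KLF6 at 1.24. Junction and keratin genes had 5 of 22 members higher and 4 lower. KRT7, a keratin of simple ducts, rose by 1.81 and the desmosome protein DSP by 1.09, while KRT19, KRT20 and CDH1 fell by 0.45, 0.40 and 0.30. The share lower, 18.2%, was near that of all genes. The lower members numbered 2 after median centring and 6 after quantile normalization.

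Wnt, BMP and FGF signalling had 10 of 23 members lower and 2 higher. The growth factor FGF9 fell by 1.47, TGFBI by 1.32, the BMP target ID2 by 1.27 and the receptor FGFR2 by 1.19. BMP4, a secreted morphogen, rose by 1.22 ± 0.33 (limma adjusted p = 0.00431), but its arrays overlapped, at 49.8, 290 and 364 with TNF against 23.6, 78.1 and 279 without.

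Of the 11 EGF receptor family members, 4 rose and 1 fell, and 2 rose without untreated replicate 2 or without TNF with insulin replicate 2. EGFR rose by 0.97 ± 0.15 (limma adjusted p = 4.25e-06), with overlapping signals of 1038 to 2137 with TNF and 531 to 1094 without. ADAM17, which sheds EGF receptor ligands and TNF, rose by 0.56, and the ligand HBEGF fell by 0.94. MAP kinase feedback and immediate early genes had 5 of 24 members higher and 3 lower. The ERK phosphatase DUSP5 rose by 1.89, DUSP7 by 0.87 and FOSL1 by 0.75, while FOS fell by 1.47. Of 15 insulin signalling and FOXO genes, 4 rose, among them FOXO1 at 1.07, the binding protein IGFBP6 at 1.07 and CCNG2 at 0.79.

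The second question was how the effect at 16 h differed from that at 4 h and 8 h, each measured in its own 12 arrays. Compared with 4 h, 587 genes (7.24%) had a more positive effect and 606 (7.48%) a more negative one. Compared with 8 h, 304 (3.75%) were more positive and 302 (3.73%) more negative. Replicate 2 at 8 h differed in RNA quality, with ACTB log2 ratios of 1.19 for TNF alone and 0.98 for insulin alone. The other groups compared had 0.04 to 0.39 in replicate 2 at 8 h, and replicate 1 had −0.25 to −0.08. The part of RNA quality in the differences from 8 h was not tested. After median centring the probe sets that differed from 8 h were 441 more positive and 150 more negative, against 440 and 407 with the deposited scaling.

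Type I interferon-stimulated genes had the late pattern most often among the lists. Of 39 members 34 had a larger effect than at 4 h and 27 than at 8 h, and none a smaller one. Their median moved through 0.18 and 0.64 at the earlier times to 1.43. IFNB1 had 0.08 at 4 h and 0.39 at 8 h, and neither passed (limma adjusted p = 0.931 and 0.34). Its effect at 16 h exceeded that at 4 h by 4.92 ± 0.37 (limma adjusted p = 4.65e-12) and that at 8 h by 4.61 ± 0.37 (1.18e-10).

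**Figure D3:**
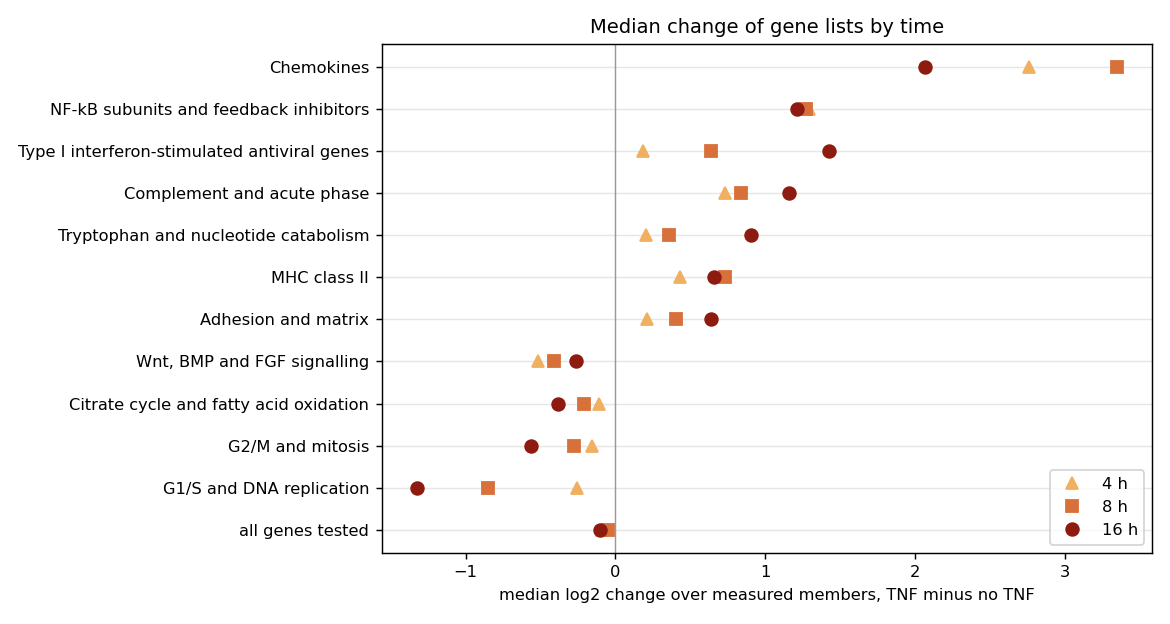
Median log2 change over the measured members of 11 gene lists and of all genes, TNF at 100 ng/ml minus no TNF, at 4 h (triangles), 8 h (squares) and 16 h (circles). The interferon-stimulated median is 0.18, 0.64 and 1.43 at these times and the chemokine median 2.76, 3.35 and 2.07.

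RSAD2 exceeded its 4 h effect by 4.40 and its 8 h effect by 3.83. Relative to 4 h, the further largest gains were those of BMP4 at 4.35, CCL5 at 3.88, IFIT1 at 3.70 and VCAM1 at 3.40. The mean effect on BMP4 changed sign, with −3.13 and −1.49 at 4 and 8 h against 1.22 at 16 h. Its rise at 16 h passed in no setting taken alone (limma adjusted p of 0.108 to 0.369), and its arrays overlapped. PLEKHA4, a phosphoinositide-binding protein, had 0.07 and 0.34 at 4 and 8 h and 3.38 at 16 h. Its signals at 16 h were 173, 290 and 478 with TNF, against 7.74, 15.3 and 28.0 without, and the change was 4.11 or 2.33 with a constant of 1 or 50.

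In the negative direction, CCL20 lay 3.65 below its 4 h effect and 4.71 below its 8 h effect, and CXCL3 lay 2.08 below its 8 h effect. GINS2 had −0.25 at 4 h and −0.85 at 8 h, so that its effect at 16 h was more negative by 3.17 ± 0.27 (limma adjusted p = 7.06e-11) and 2.57 ± 0.27 (1.95e-08). RGS2 had −0.80 at 4 h and −2.83 at 8 h and differed from 4 h by −2.58. NRGN, PECR and VIL1 differed from 4 h by −2.54, −2.47 and −2.30. Of 37 replication genes, 27 had a more negative effect than at 4 h and 13 than at 8 h, with medians of −0.25, −0.85 and −1.33 at 4, 8 and 16 h.

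**Figure D4:**
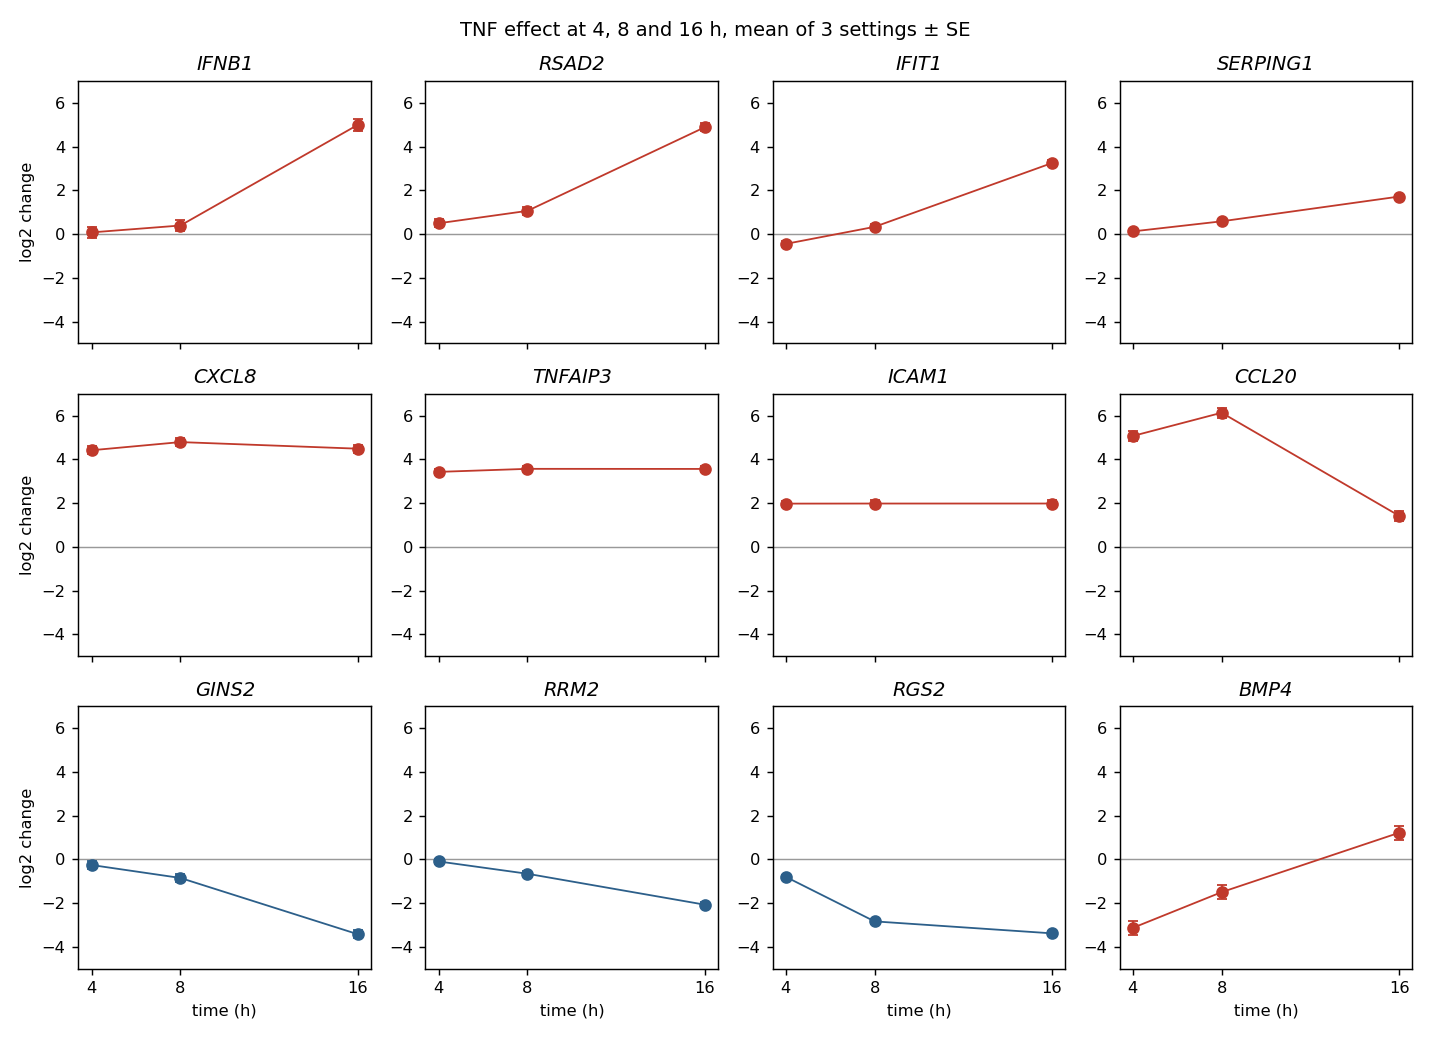
Log2 change, TNF at 100 ng/ml minus no TNF, averaged over the 3 settings, at 4, 8 and 16 h for 12 genes; bars are ± 1 standard error from the fit, which is the same at each time. IFNB1 moves to 5.00 only at 16 h, CXCL8 stays between 4.41 and 4.79, CCL20 drops to 1.42 and GINS2 reaches −3.42.

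The third question was whether the effect at 16 h differed between no survival factor, EGF and insulin. By setting, 1145 genes (14.1%) passed without a survival factor, 1175 (14.5%) with EGF and 1427 (17.6%) with insulin. As probe sets, 734 rose and 918 fell without a factor, 696 rose and 1018 fell with EGF, and 972 rose and 1121 fell with insulin. After median centring these were 697 higher and 487 lower without a factor, 492 higher and 779 lower with EGF, and 1278 higher and 371 lower with insulin. The balance thus turned to more rises without a factor and with insulin, and not with EGF. The difference itself, by limma's moderated F test, passed for 8 genes (0.0987%), and 1104 probe sets had an unadjusted p under 0.05, of 13422 tested.

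RGS2 had the lowest adjusted p of these 8, at 0.000924. Without a survival factor its signals were 256 and 274 with TNF, against 4844 and 4324 without TNF. With EGF they were 699 and 556 with TNF, against 3209 and 3050 without, and with insulin 383 and 295 with TNF, against 5279 and 4369 without. EGF cells thus had both the highest signals with TNF and the lowest without, and the changes were −4.05 without a factor, −2.30 with EGF and −3.79 with insulin. The call did not pass after median centring (limma adjusted p = 0.0556) or with the 12 arrays alone (0.112).

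The class II gene HLA-DPB1 rose with insulin, at 1.34, and had 0.41 without a factor and −0.07 with EGF (limma adjusted p = 0.01 for the difference). Its insulin arrays gave 2750 and 2473 with TNF, against 972 and 1075 without. SERPING1 had 2.27 with insulin, 1.75 without a factor and 1.13 with EGF. The nucleotide-cleaning enzyme NUDT1 and ARHGDIB had their most negative values with insulin, at −3.13 and −2.92, and −1.10 and −1.20 without a factor. NUDT1 gave 13.5 and 11.2 with TNF and insulin, against 212 and 197 with insulin alone. The actin-binding ABLIM1 had −0.99 without a factor and 0.24 with insulin, HNRNPA0 had −1.09 and 0.31, and the phosphatase ILKAP had −1.18 and 0.16. Each of these 7 genes missed the threshold when the 12 arrays were fitted alone and when insulin replicate 1 was left out, except SERPING1, which kept the call in that last case and lost it without either array of TNF with insulin. Each also lost it without some other single arrays. After median centring 6 of the 7 missed it, with limma adjusted p of 0.0556 to 0.156, and HLA-DPB1 kept it. NUDT1 and ARHGDIB also missed it with a constant of 50 (0.193 and 0.0911) and after quantile normalization (0.0719 each).

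**Figure D5:**
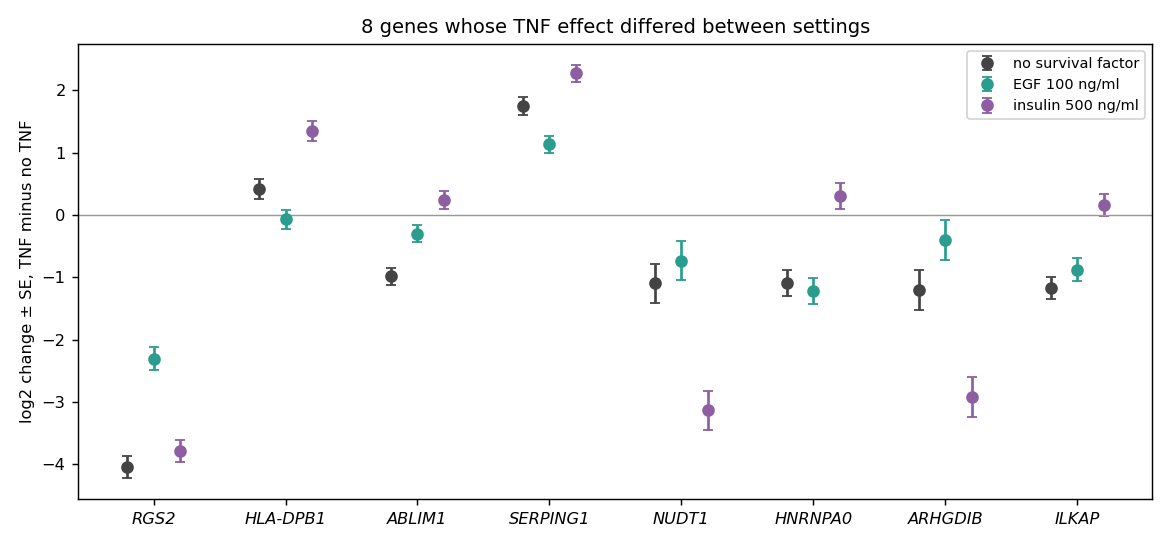
Log2 change ± standard error, TNF at 100 ng/ml minus no TNF at 16 h, without a survival factor, with EGF and with insulin (2 arrays per group), for the 8 genes whose effect differed between settings. RGS2 is −2.30 with EGF against −4.05 without a factor, and HLA-DPB1 is 1.34 with insulin against 0.41. None of the 8 genes passed when the 12 arrays were fitted alone.

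IFNB1 had 5.80 without a factor, 4.60 with EGF and 4.60 with insulin, a difference that did not pass (limma adjusted p = 0.734). The interferon-stimulated list had medians of 1.66, 1.34 and 1.49 in these settings, and the replication list −1.17, −1.46 and −1.23. None of the members of either list passed the test of the difference, nor did any of the chemokines or NF-kB genes.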

How the data were processed

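RNA was measured on Affymetrix human genome arrays. The deposited values are intensities on a linear scale, made with MAS5 per the submitters' processing notes, and every array had the same 2% trimmed mean of 500.2, so they were used as already scaled. The table held 22283 features, and 68 control probe sets were left out. Of the other 22215, 19065 had 1 gene symbol in the platform table, 1043 several and 2107 none.

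Signals were taken as log2(signal + 12.49), the constant being the 10th percentile of all signals. Probe sets whose mean reached 7.24 on that scale in at least 1 of 27 groups were kept. limma 3.58.1 in R 4.3.3 fitted 1 mean per group over all 54 arrays (27 residual degrees of freedom, trended eBayes), with Benjamini-Hochberg adjustment over 13422 probe sets and a threshold of 0.05. Each gene is given by its kept 1-symbol probe set of highest mean signal, and no gene had probe sets called in opposite directions (0 genes). On simulated data with independent noise, the fit recovered 40.5% of changes of 0.5, 90.9% of changes of 1 and 97.2% of changes of 2 on the log2 scale. It made 4 false calls of 153. Far fewer probe sets changed there than were called in the real data, so these rates may not hold for the real data. The number of arrays limits the precision.

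The members and the 33 lists (850 genes, 678 measured) were chosen with earlier results of these data known. Genes were named if they were among the 10 largest rises or falls, the leading called members of a list or members a sentence is about, the genes called for a difference between settings, the largest time differences (6 each way against 4 h and 3 against 8 h), or a set of fixed TNF, interferon and growth genes. The 10 largest rises and 10 largest falls were ranked only among called genes with the same sign in all 3 settings. Alternatives covered the constant, the filter, quantile normalization, median centring, the trend, the arrays in the fit, a replicate block and leaving out each array.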

Additional observations from a re-analysis of the deposited data

Results flagged for a closer look

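Among 344 groups of 6 arrays (172 genes picked by rank or in the fixed set, on 2 sides), 22 had 1 array far from the other 5. Chance gives about 1 in 20. On the TNF side the far values were PECR at 36.88 and BMP4 at 49.83 (TNF with insulin, replicate 2), PAGR1 at 156.9, TNF at 144.4 and CLDN1 at 204.7 (TNF with insulin, replicate 1), CDKN1A at 1174, PFKM at 1515, TGFBI at 42.92 and DUSP5 at 2279 (TNF alone, replicate 2), and AGR2 at 4533 and PSMB7 at 10896 (TNF with EGF, replicate 1). Without TNF they were RSAD2 at 189.7, MYC at 4640, CXCL11 at 1974, TAP1 at 13896 and SEC24D at 100.7 (untreated, replicate 1), ACADM at 640.9 (untreated, replicate 2), NRGN at 45.69 (EGF, replicate 2), CSF1 at 203.4 (EGF, replicate 1), WDR43 at 733.1 (insulin, replicate 2), and LIAS at 64.64 and PLAU at 165.7 (insulin, replicate 1).

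The effect of TNF at 16 h differed between settings for 8 genes by limma's moderated F test. The adjusted p was 0.000924 for RGS2, 0.01 for HLA-DPB1, 0.0132 for ABLIM1, 0.0178 each for SERPING1, NUDT1, HNRNPA0 and ARHGDIB, and 0.0254 for ILKAP.

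The effect at 16 h differed from that at 4 h for 1193 genes and from that at 8 h for 606. The log2 differences from 4 h were 4.92 for IFNB1, 4.40 for RSAD2, 4.35 for BMP4, 3.88 for CCL5, 3.70 for IFIT1, 3.40 for VCAM1, −3.65 for CCL20, −3.17 for GINS2, −2.58 for RGS2, −2.54 for NRGN, −2.47 for PECR and −2.30 for VIL1. Those from 8 h were 4.61 for IFNB1, 3.83 for RSAD2, 3.04 for PLEKHA4, −4.71 for CCL20, −2.57 for GINS2 and −2.08 for CXCL3.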

How the results depend on the processing

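The count of probe sets changed by TNF at 16 h was 3945 and lay between 3107 (median centring) and 4259 (the 18 arrays at 16 h alone) under the alternatives without a replicate block, and between 3468 and 3695 without single arrays. Of 15 pairs of groups at 16 h, 12 had same-numbered arrays that deviated together by a correlation above 0.1 (lowest 0.009, median 0.202, highest 0.288). Shared replicate structure in part of the groups is thus possible, but the labels give none and not every pair passed 0.1, so the values reported carry no replicate block. With a replicate block the count was 5086. The block gave 2522 in place of 1652 without a survival factor, 2620 in place of 1714 with EGF, 3099 in place of 2093 with insulin, 78 in place of 9 for the difference between settings, 2554 in place of 1702 against 4 h, 1525 in place of 847 against 8 h and 438 in place of 388 list genes. The difference between settings gave 4 after median centring, 0 with the 12 arrays alone (1112 at an unadjusted p under 0.05) and 2 to 29 without single arrays (2 without insulin replicate 1, 29 without insulin replicate 2). The cause was not tested. Without single arrays the counts were 958 to 1665 without a factor, 914 to 1716 with EGF, 1081 to 2100 with insulin, 1488 to 1679 against 4 h, 693 to 832 against 8 h and 356 to 375 list genes. The low values came with 3 arrays in place of 4 in a setting: 958, 1051 and 1081 without untreated replicate 1, TNF replicate 1 and TNF replicate 2, 914 and 1013 without EGF replicates 1 and 2, 1137 and 1078 without TNF with EGF replicates 1 and 2, and 1081 without insulin replicate 1. There the lone array of a group is assumed to vary like the other groups. Averaged over the survival factors, 172 genes picked by rank or in the fixed set were followed through every processing alternative and array left out. Of these, 154 kept direction and call, and none reversed. Further list members named in the text, such as CASP8, CASP9, CDH1 and SLPI, were not followed in this way. MYC passed under the replicate block (limma adjusted p = 0.0138). All 12 named differences from 4 h and all 6 from 8 h kept theirs. Signals near the array's floor limit the folds of IFNB1, SLC2A6, SOSTDC1 and similar genes.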
